A study of Mus musculus with 5 samples.

Results

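The genes described here are 35 genes of mitosis, the part of the cell cycle in which duplicated chromosomes are separated into daughter cells. They were chosen by name, with earlier results of these data known. Every probe whose array name was a member's symbol or an older name of the same mouse gene was collected. This gave 71 of the 45281 probes on the array. Each gene was represented by its brightest probe over all 5 arrays. Of the 35 genes, 26 gave a signal that passed the detection filter (detection p under 0.05 on at least 2 arrays), out of 15733 genes in all, and those 26 were detected on all 5 arrays. The study compared whole uteri of mice aged 15 days, on a C57BL/6J;129S5/Brd mixed hybrid strain background, with 3 control pools (7, 9 and 11) labelled as wild type and 2 Dicer cKO pools (10 and 12). In the Dicer cKO mice the microRNA-processing enzyme Dicer was deleted by Cre expressed from the progesterone receptor locus, so only cells that have expressed that receptor can lose the gene. Each pool of uteri was read on 1 bead array. The labels give neither the number of uteri in a pool nor whether control mice carried Cre or floxed alleles. The p-values below weigh a group difference against the spread between these pools, not between single mice. With so few pools, the fit draws each gene's spread toward that of other genes of like intensity.

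Mitotic genes are transcribed late in the cell cycle, from G2 to the end of mitosis, and their messages are scarce in resting cells. Cdk1 with a cyclin drives entry into mitosis, the Aurora and Polo-like kinases build the spindle, the spindle checkpoint delays anaphase until all chromosomes are attached, and the anaphase-promoting complex with Cdc20 then releases the sister chromatids. Many of these genes share promoter elements: CCAAT boxes, bound by NF-Y, and a cell cycle genes homology region, the hexamer TTTGAA or TTTAAA, bound by the MuvB complex, which represses them in resting cells as part of DREAM and activates them later together with Mybl2 and Foxm1.

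These elements were common in the members' promoters. RefSeq promoter windows on GRCm38.p6, from 250 bases before to 50 bases after an annotated start, were at hand for 30 of the 35 genes, 32 windows in all. Counts are of windows, not genes. Ect2 and Prc1 each had 2 windows that overlap almost fully, so the same motif matches count in both. The windows of all genes likewise hold several for some genes, with 32851 windows of 27025 genes. On either strand, TTTGAA was present in 24 of the 32 windows (75%), against 17.9% of all 32851 windows of the same length. The hexamer TTTAAA was present in 7 (21.9%, against 13.2% of all). At least 1 CCAAT was present in 27 (84.4%, against 37.4%) and at least 2 in 18 (56.2%, against 11.7%). CCAAT together with either hexamer occurred in 24 (75%, against 10.7%). These are matches of letters only, and binding was not measured. The windows of 3 genes among the 5 called below, of Plk1, which had the largest difference, and of Nusap1, a called gene whose window held none of the 3 motifs, are printed 5′ to 3′ on the strand of the gene, with each motif match on either strand in capitals. They lie at chr2:172370521-172370820 (minus strand, Aurka), chr11:99024140-99024439 (minus, Top2a), chr10:69352863-69353162 (minus, Cdk1), chr7:122159185-122159484 (plus, Plk1) and chr2:119618048-119618347 (plus, Nusap1).
Aurka: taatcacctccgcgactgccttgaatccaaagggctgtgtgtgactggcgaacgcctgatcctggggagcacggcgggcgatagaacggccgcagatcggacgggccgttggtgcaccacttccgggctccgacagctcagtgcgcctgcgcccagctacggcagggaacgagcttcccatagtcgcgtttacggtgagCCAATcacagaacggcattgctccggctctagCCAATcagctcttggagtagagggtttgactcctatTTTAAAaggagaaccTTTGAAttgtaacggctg
Top2a: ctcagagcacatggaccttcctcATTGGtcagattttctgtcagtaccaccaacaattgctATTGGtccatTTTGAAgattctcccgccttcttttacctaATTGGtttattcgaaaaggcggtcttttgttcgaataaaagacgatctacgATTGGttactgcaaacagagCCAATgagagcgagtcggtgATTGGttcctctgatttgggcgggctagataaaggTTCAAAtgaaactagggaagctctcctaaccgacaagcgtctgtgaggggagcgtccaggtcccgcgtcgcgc
Cdk1: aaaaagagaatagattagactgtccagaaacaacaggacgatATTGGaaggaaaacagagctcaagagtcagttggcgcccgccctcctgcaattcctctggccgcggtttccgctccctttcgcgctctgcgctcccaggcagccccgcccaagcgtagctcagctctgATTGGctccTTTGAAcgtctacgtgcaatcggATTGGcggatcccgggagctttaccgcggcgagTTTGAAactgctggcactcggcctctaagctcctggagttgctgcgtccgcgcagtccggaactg
Plk1: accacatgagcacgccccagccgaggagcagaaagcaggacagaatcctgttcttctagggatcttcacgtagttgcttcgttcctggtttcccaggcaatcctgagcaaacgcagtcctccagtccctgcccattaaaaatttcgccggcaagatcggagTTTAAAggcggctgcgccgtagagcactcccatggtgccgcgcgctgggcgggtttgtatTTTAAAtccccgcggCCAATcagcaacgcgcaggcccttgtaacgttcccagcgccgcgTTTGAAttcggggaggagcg
Nusap1: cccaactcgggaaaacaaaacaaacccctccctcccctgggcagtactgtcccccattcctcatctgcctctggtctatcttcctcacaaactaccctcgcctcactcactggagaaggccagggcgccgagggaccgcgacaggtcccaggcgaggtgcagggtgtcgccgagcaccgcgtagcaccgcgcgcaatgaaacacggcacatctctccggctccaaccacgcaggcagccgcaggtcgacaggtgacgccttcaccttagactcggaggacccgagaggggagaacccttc
In Aurka, a pair of CCAAT boxes begins at -51 and -19 from the start site (+1), with TTTAAA at 18 and TTTGAA at 33. Top2a holds 6 CCAAT matches, from -227 to -58, and TTTGAA matches at -179 and -23. Cdk1 holds 3 CCAAT matches, at -208, -80 and -48, with TTTGAA at -71 and -15. The Plk1 window holds 1 CCAAT at -14, TTTAAA at -89 and -29 and TTTGAA at 31. The windows of Mad2l1 and Melk, like that of Nusap1, held none of the 3 motifs.

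The arrays were alike in overall quality. The share of probes detected ran from 47% to 49.5% over the 5 arrays, and the median intensity before normalization ran from 57.5 to 63. Log2 signals of all tested genes correlated at 0.993 to 0.994 between arrays of a group and at 0.978 to 0.989 between groups. Dicer1 itself, on a probe carrying an older gene name, gave log2 signals of 8.62 (pool 10) and 8.75 (pool 12) after deletion, below the control values of 9.14, 9.08 and 9.12, and it fell by 0.43 ± 0.09 (limma adjusted p = 0.0224). Its other probe gave -0.22 ± 0.13. Neither probe's place in the transcript is known here, so they may lie outside the deleted exons and are a limited check of the labels.

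Most measured mitosis genes were higher in the Dicer cKO pools, by modest amounts, and few passed the test. In RNA of a whole organ, more dividing cells and more RNA per cell, like fewer cells of a type and less RNA per cell, cannot be told apart. All differences are Dicer cKO minus control in log2 units with the SE of the limma fit, from 2 against 3 pools. Because the members were chosen with earlier results known, the shares of all genes given beside them describe the list and do not test it. Of the 26 genes, 25 had a difference above 0, as did 53% of all genes. Their median difference was 0.44, against 0.01 over all 15733 genes tested, and the range ran from -0.07 for Kif23 to 0.82 for Plk1. At a limma adjusted p under 0.05 over all genes, 5 rose, 0 fell and 21 were not called. That is 19.2% of the 26 called higher, where 2.78% of all genes were called higher, 3.96% lower and 6.74% in either direction. At an unadjusted p under 0.05, 21 of the 26 differed, all higher, where 10.4% of all genes were higher. In 15 of the 26 (57.7%) both Dicer cKO pools lay above all 3 control pools, where 19.9% of all genes did so, and in 0 did both lie below, where 17.6% did.

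**Figure D1:**
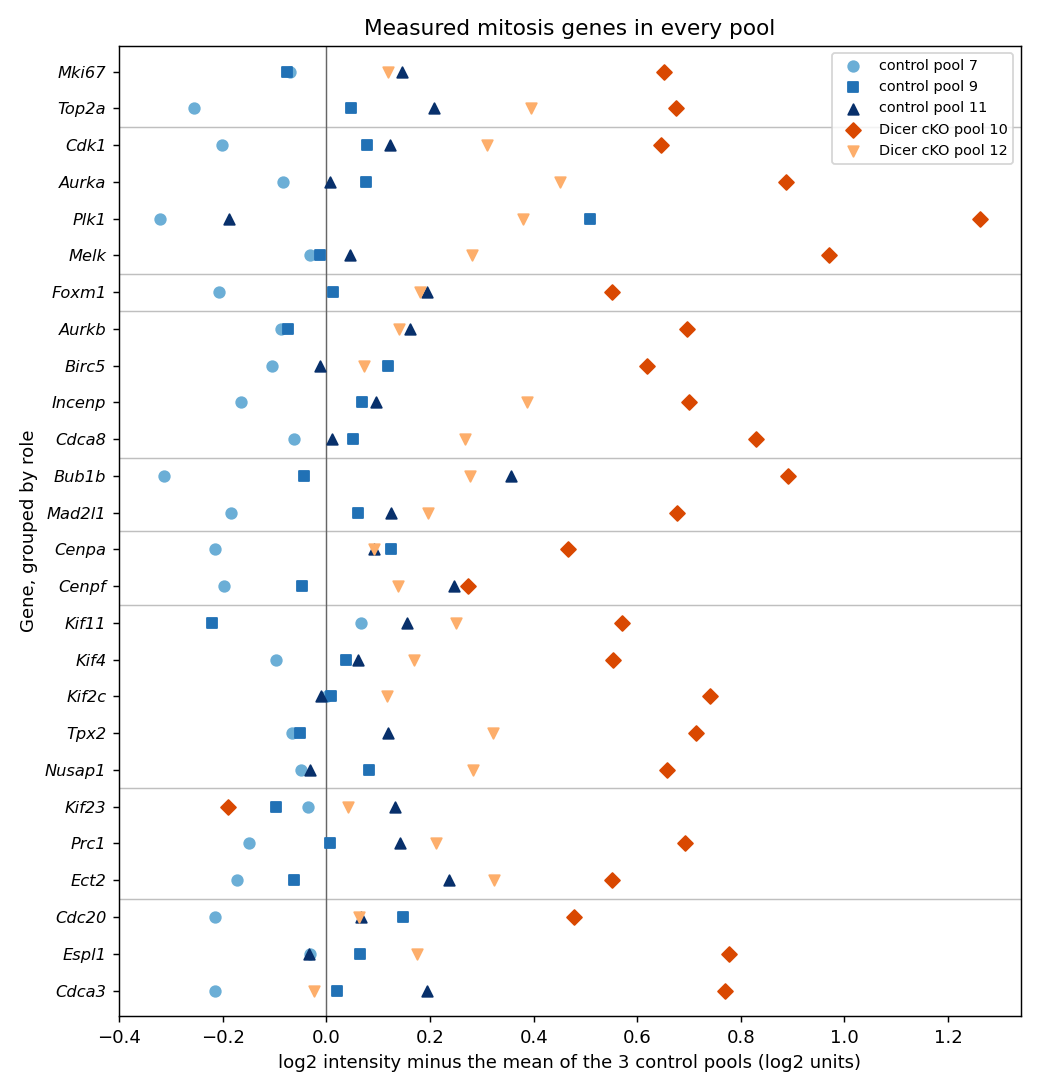
Log2 intensity of the 26 measured mitosis genes in each pool, relative to the mean of the 3 control pools (x axis, log2 units), with 1 row per gene and grey lines between roles; each symbol is 1 pool. Dicer cKO pool 10 is the highest pool for 25 of 26 genes, while Dicer cKO pool 12 lies above all control pools for 15.

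The members' difference was uneven between the 2 Dicer cKO pools. Pool 10 was the highest of all 5 pools for 25 of the 26 genes, and its median deviation from the control mean was 0.68. Pool 12 had a median deviation of 0.20. For 25 of 26 genes pool 10 exceeded pool 12, by a median of 0.43, whereas pool 10 exceeded pool 12 for 50.8% of all genes tested, with a median gap of 0.0045. The control pools also differed: pool 7 was the lowest of all pools for 21 genes (median deviation -0.13), and pool 11 was the highest control for 17 (0.12) and pool 9 for 9 (0.03). The range over the control pools had a median of 0.27 and reached 0.83 for Plk1.

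**Figure D2:**
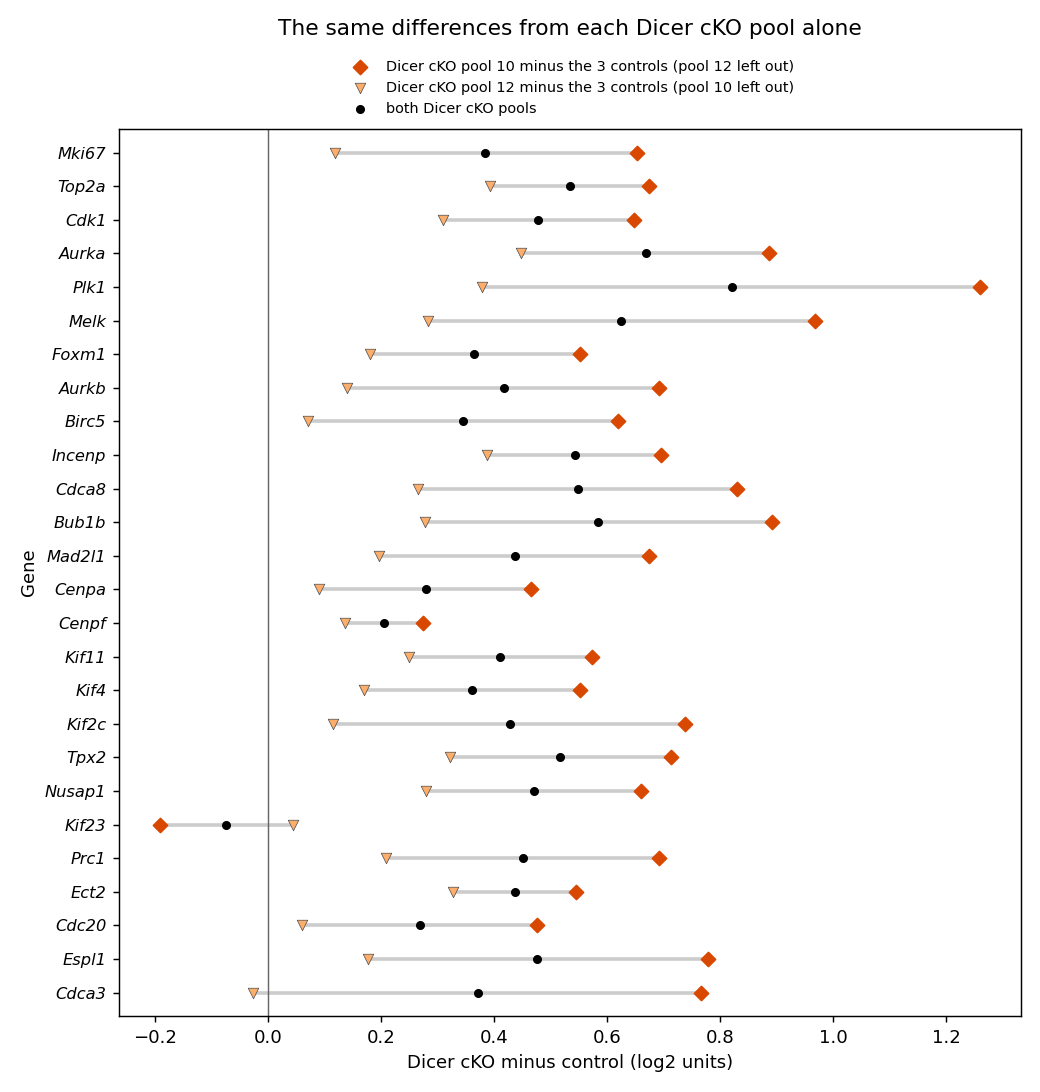
Difference of each mitosis gene (x axis, log2 units) from both Dicer cKO pools (black), with pool 12 left out (diamonds) and with pool 10 left out (triangles). The median over genes is 0.67 from pool 10 alone and 0.20 from pool 12 alone, and 25 of the 26 genes are above 0 in each.

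The number of genes called changed with the pool left out. Without Dicer cKO pool 10, 0 of the 26 genes were called by limma, and the median difference was 0.20. Over all genes, 108 were then called higher and 196 lower, and 0.686% of all genes were called higher. Without Dicer cKO pool 12, 18 members were called, all higher, with a median of 0.67, and 4 of the 5 genes called from all pools were among them, while 2.71% of all genes were called higher. Without control pool 7, 0 were called (median 0.38), beside 1.43% of all genes called higher. Without control pool 9, 2 were called (median 0.45), beside 1.47%, and without control pool 11, 4 (median 0.49), beside 2.47%. Where 1 Dicer cKO pool remains, its spread is assumed to be like that of the other group. In each of these 5 fits 25 of the 26 genes were above 0, but not always the same ones: without Dicer cKO pool 10, Cdca3 was at -0.03 and Kif23 at 0.04.

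Of the mitotic kinases, Aurka and Cdk1 rose. Aurka, the Aurora kinase of centrosomes and spindle poles, listed on the array as STK6, had log2 signals of 8.17, 8.33 and 8.26 in the controls (pools 7, 9 and 11, an order kept below) and 9.14 and 8.70 after deletion (pools 10 and 12). Both Dicer cKO pools lay above every control pool. The difference was 0.67 ± 0.13, a 1.59-fold change (limma adjusted p = 0.0160), and the call was lost without control pool 7 (limma adjusted p = 0.0543) or Dicer cKO pool 10 (0.152). Cdk1, the kinase that drives entry into mitosis, listed as CDC2A, read 10.10, 10.38 and 10.42 in the controls and 10.94 and 10.61 in pools 10 and 12. Its groups did not overlap, and the difference was 0.48 ± 0.12 (limma adjusted p = 0.0494), a call lost when any 1 pool other than Dicer cKO pool 12 was left out (0.0544 to 0.391). A further Cdk1 probe, detected on 4 of 5 arrays, differed by 0.16 ± 0.16, and with both probes averaged the difference was 0.32 and not called (limma adjusted p = 0.149).

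Plk1, the Polo-like kinase that acts from mitotic entry to cytokinesis, had the largest difference of the members and also the largest spread. It read 7.43, 8.26 and 7.57 in the controls, then 9.02 in pool 10 and 8.13 in pool 12. Control pool 9 lay above Dicer cKO pool 12, so the groups overlapped. The difference was 0.82 ± 0.28 and was not called (limma adjusted p = 0.122), but it was called without control pool 9 (1.08, limma adjusted p = 0.0364) and without Dicer cKO pool 12 (1.26, 0.0392). Melk, a kinase abundant in dividing cells, differed by 0.63 ± 0.19 without overlap of the groups and was not called (limma adjusted p = 0.0876).

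Top2a, the topoisomerase that untangles sister chromatids, rose. It read 9.14, 9.44 and 9.60 in the controls and 10.07 and 9.79 in pools 10 and 12, a difference of 0.53 ± 0.14 whose limma adjusted p, 0.04998, lay just under the threshold. The call was lost without control pool 7 (limma adjusted p = 0.118) or 9 (0.0934) and without Dicer cKO pool 10 (0.382) or 12 (0.0534). Further Top2a probes differed by 0.53 ± 0.17 and, for a probe detected on 3 of 5 arrays, by 0.26 ± 0.17, and with the probes averaged the difference was 0.44 and not called (limma adjusted p = 0.106). Mki67, which coats mitotic chromosomes and is the usual mark of proliferating cells, read 9.55, 9.54 and 9.76 in the controls and 10.27 and 9.74 in pools 10 and 12. Pool 12 fell within the control range, and the difference of 0.38 ± 0.15 was not called (limma adjusted p = 0.164; 0.0194 without Dicer cKO pool 12). Foxm1, the transcription factor of late cell cycle genes, read 7.75, 7.97 and 8.15 in the controls and 8.51 and 8.14 in pools 10 and 12, a difference of 0.37 ± 0.15 that was not called (limma adjusted p = 0.201).

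All 4 genes of the chromosomal passenger complex, which corrects faulty attachments of chromosomes to the spindle, were measured, and 1 rose. Incenp, the scaffold of the complex, read 8.63, 8.87 and 8.89 in the controls and 9.50 and 9.19 in pools 10 and 12, with no overlap between the groups. It rose by 0.54 ± 0.12 (limma adjusted p = 0.0287). Leaving out control pool 7 (0.0857), control pool 9 (0.0574) or Dicer cKO pool 10 (0.267) ended that call. Aurkb, the kinase of the complex, read 8.71, 8.72 and 8.96 in the controls and 9.49 and 8.94 in pools 10 and 12, so that pool 12 stood within the control range. Its difference was 0.42 ± 0.16 (limma adjusted p = 0.158). Cdca8 (borealin) differed by 0.55 ± 0.16 without overlap and Birc5 (survivin) by 0.35 ± 0.15 with overlap, and neither was called.

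Neither of the measured spindle checkpoint genes was called. Mad2l1, which holds back Cdc20 at unattached chromosomes, read 9.10, 9.35 and 9.41 in the controls and 9.96 and 9.48 in pools 10 and 12, a difference of 0.44 ± 0.14 with no overlap (limma adjusted p = 0.117). Bub1b (BubR1), its partner in that inhibitor, differed by 0.58 ± 0.20, with pool 12 (10.37) below control pool 11 (10.45). It was called without control pool 11 (0.76, limma adjusted p = 0.0442) and without Dicer cKO pool 12 (0.89, 0.0479).

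Of the 3 centromere members 2 were measured, with differences below the members' median of 0.44. Among the other mitosis genes described below, 12 genes of centromere assembly had a median difference of 0.35. Cenpa, the histone variant that marks centromeres, read 11.21, 11.55 and 11.51 in the controls and 11.89 and 11.51 in pools 10 and 12. Its difference was 0.28 ± 0.13, with a 95% interval from -0.01 to 0.56 (limma adjusted p = 0.252). Cenpf, a large protein of the outer kinetochore, differed by 0.21 ± 0.16 (0.515), with a 95% interval from -0.14 to 0.55.

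**Figure D3:**
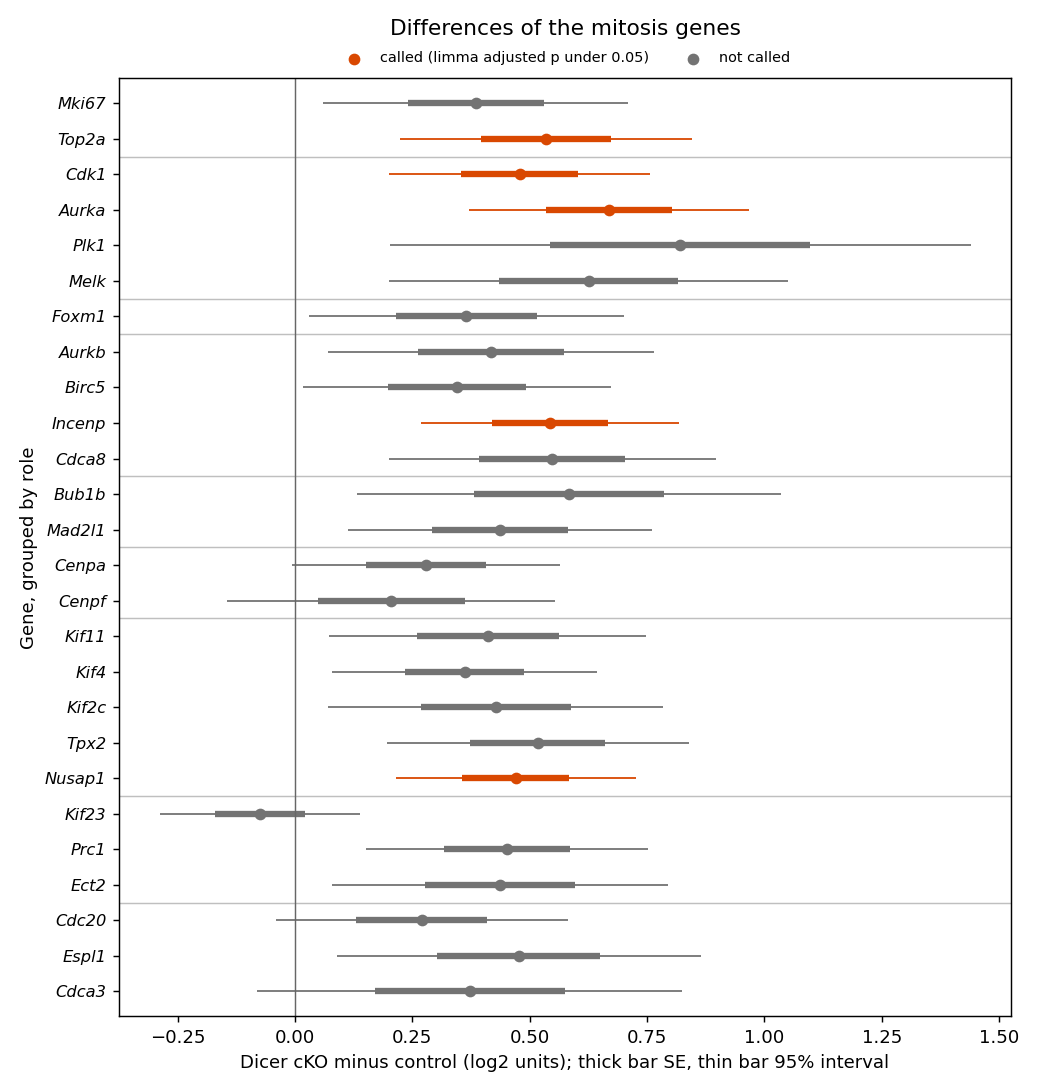
Dicer cKO minus control for each of the 26 measured genes (x axis, log2 units), with thick bars for the SE of the limma fit, thin bars for the 95% interval and colour for the 5 called genes. The interval lies above 0 for 21 genes and includes 0 for Cenpa, Cenpf, Kif23, Cdc20 and Cdca3.

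Among motors and other proteins of the spindle, Nusap1 rose. This microtubule-bundling protein read 9.52, 9.65 and 9.54 in the controls and 10.23 and 9.85 in pools 10 and 12, a difference of 0.47 ± 0.11 with no overlap (limma adjusted p = 0.0396). The call was lost when any 1 pool other than Dicer cKO pool 12 was left out (limma adjusted p from 0.0661 to 0.314). A second detected Nusap1 probe differed by 0.01 ± 0.16, and with both averaged the difference was 0.24 and not called (limma adjusted p = 0.305). Tpx2, the activator of Aurora A on the spindle, differed by 0.52 ± 0.14 and came close to the threshold (limma adjusted p = 0.0649). The kinesins Kif2c, which shortens microtubules, Kif11, which pushes the spindle poles apart, and Kif4, which works on chromosome arms, differed by 0.43 ± 0.16, 0.41 ± 0.15 and 0.36 ± 0.13. The groups did not overlap for any of these 4 genes, and none of the 4 was called.

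For the central spindle and cytokinesis, the values depended on the probe in 1 gene. Prc1, which bundles the microtubules between separating chromosomes, read 11.05, 11.20 and 11.34 in the controls and 11.89 and 11.41 in pools 10 and 12, a difference of 0.45 ± 0.13 with no overlap (limma adjusted p = 0.0814). Ect2, the exchange factor that switches on RhoA for the cleavage furrow, differed by 0.44 ± 0.16 (0.154), also with no overlap. Kif23, the kinesin of the centralspindlin complex, was the 1 measured member below 0. Its brightest probe, listed under the older name KNSL5, read 11.41, 11.35 and 11.58 in the controls and 11.26 and 11.49 in pools 10 and 12, a difference of -0.07 ± 0.10 (limma adjusted p = 0.728). The 3 probes listed as KIF23 differed by 0.30 ± 0.09, 0.41 ± 0.09 and 0.30 ± 0.17. The mean of the 4 probes differed by 0.23. Which transcripts these probes bind was not tested.

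The remaining group holds genes of anaphase and of the ubiquitin machinery of mitosis. Espl1 (separase), the protease that cuts cohesin, read 6.52, 6.62 and 6.52 in the controls and 7.33 and 6.73 in pools 10 and 12, a difference of 0.48 ± 0.17 with no overlap (limma adjusted p = 0.151). Cdc20, which activates the anaphase-promoting complex, read 9.72, 10.08 and 10.00 in the controls and 10.41 and 10.00 in pools 10 and 12. Pool 12 stood within the control range, and the difference of 0.27 ± 0.14 was not called (0.312; 95% interval -0.04 to 0.58). Cdca3, a factor of the ubiquitin-dependent entry into mitosis, differed by 0.37 ± 0.20 (0.343), and by -0.03 without Dicer cKO pool 10.

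The other 9 members, Nek2, Cks2, Bub1, Ttk, Cenpe, Hmmr, Kif20a, Racgap1 and Ube2c, were not detected on any array by any of their probes, and no difference is given for them. They include the ubiquitin-conjugating enzyme of the anaphase-promoting complex (Ube2c) and the checkpoint kinases Bub1 and Ttk. A signal below detection sets no level for them.

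Further probes of the same genes gave a check that the choice of the brightest probe had not used. There were 20 further detected probes in 12 of the genes, and all 20 had a difference above 0, from 0.01 for Nusap1 to 0.78 for Bub1b. They were read on the same 5 arrays, so they are no further replicates. Their values lay on either side of the brightest probe: the 3 Birc5 probes differed by 0.35, 0.42 and 0.48, the 4 Cdc20 probes by 0.27, 0.40, 0.47 and 0.31, and the 2 probes of Mad2l1 by 0.44 and 0.42. The further probes of Cdk1 and Nusap1 and 1 of those of Top2a lay well below the brightest. With all detected probes of a gene averaged, 2 members were called, Aurka and Incenp, beside 2.54% of all genes called higher, and all 26 were above 0.

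**Figure D4:**
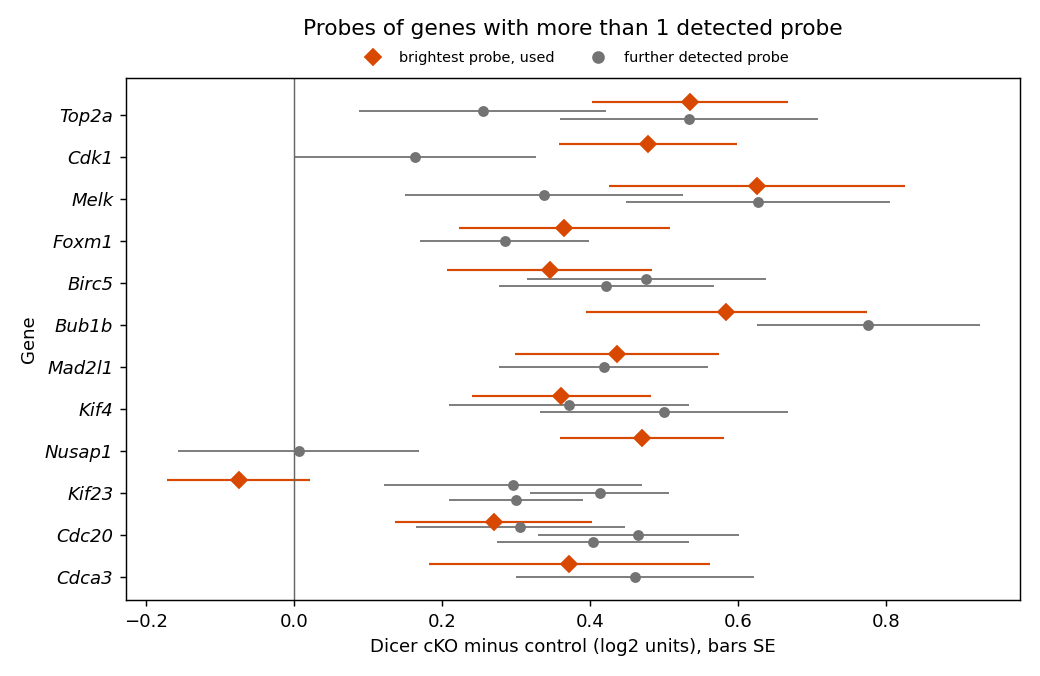
Dicer cKO minus control (x axis, log2 units, bars SE) for every detected probe of the 12 genes with more than 1, with the brightest probe as a diamond and further probes as circles. All circles lie above 0, and the brightest Kif23 probe is the 1 diamond below 0.

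Reading error on an array was small on the scale of raw intensities. Each member's probe was read on 24 to 82 beads per array. Before background correction, bead-to-bead error alone gave a difference an SE between 0.03 and 0.07, with a median of 0.05. The SE of the fit, which holds the spread between pools after that correction, ran from 0.10 to 0.28, with a median of 0.15. Removing background enlarges the relative error of dim probes, such as those of Ect2 (84.8 to 103.9 before correction) and Melk (85.5 to 134.3). For dim probes the bead SE given here is therefore too low to set beside the SE of the fit.

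Other genes of mitosis were also mostly above 0. Of 88 other mitosis genes from a textbook list, 69 were measured, 8 rose, 0 fell and 61 were not called, so that 11.6% were called higher beside 2.78% of all genes. A difference above 0 was found in 62 (89.9%, beside 53% of all genes), with a median of 0.33. The largest called differences were those of the midbody protein gene Cep55 (0.78 ± 0.14, limma adjusted p = 0.0104), the G2 and S phase-expressed gene Gtse1 (0.75 ± 0.15, 0.0173), the centromere gene Cenph (0.74 ± 0.19, 0.0492) and Cdca2, which directs a phosphatase to chromosomes (0.60 ± 0.15, 0.0418). The groups of this list are broad. The median was 0.47 in 8 genes placed under cytokinesis, among them Plk4, Pbk and Ckap2l, which have other main roles. Between 0.33 and 0.35 were the medians of kinetochore and checkpoint genes, centromere assembly, condensin and cohesion, and spindle genes. So was that of cyclins and phosphatases, a group that also holds Gtse1 and the kinase gene Pkmyt1. The median was -0.02 in 11 genes of the anaphase-promoting complex and its regulators. Of these 11, 0 were called, where 6.74% of all genes were called in either direction. In limma 1 of the 11 had an unadjusted p under 0.05, as did 3266 of all 15733 genes. With only 11 genes, a count of 0 does not set this group apart from all genes. Without Dicer cKO pool 10, 1 of the 69 genes was called, and without pool 12, 20. Without control pool 7 and without control pool 9, 2 and 3 were called. The shares of all genes called higher in these fits are those given above (0.686%, 2.71%, 1.43% and 1.47%).

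Among genes of the step from G1 to S phase and of DNA replication, 37 of 38 were above 0 (97.4%, beside 53% of all genes). Of the 38 measured, 11 rose (28.9%, beside 2.78% of all genes), 0 fell and 27 were not called, and the median was 0.46. The largest called differences were those of the cyclin genes Ccne1 (1.16 ± 0.18, limma adjusted p = 0.0050) and Ccne2 (0.65 ± 0.16, 0.0370), of Mcm10, which helps to open the replication fork (0.73 ± 0.14, 0.0135), and of the helicase subunit gene Mcm5 (0.69 ± 0.16, 0.0307). Here too pool 10 exceeded pool 12 in 37 of 38 genes, with median deviations from the control mean of 0.65 and 0.28, and 1 gene was called without pool 10, 21 without pool 12, 3 without control pool 7 and 3 without control pool 9. In the same fits 0.686%, 2.71%, 1.43% and 1.47% of all genes were called higher.

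**Figure D5:**
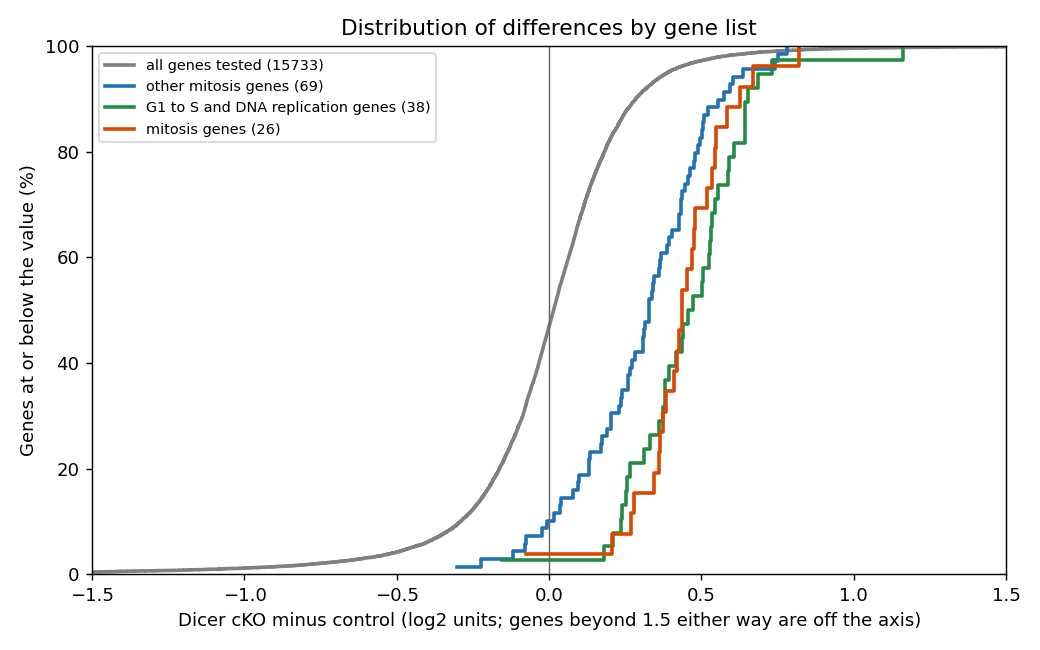
Cumulative share of genes (y axis, percent) at or below a given Dicer cKO minus control difference (x axis, log2 units) for all 15733 genes tested, 69 other mitosis genes, 38 genes of G1 to S and DNA replication, and the 26 mitosis genes. The medians are 0.01, 0.33, 0.46 and 0.44.

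None of the measured genes listed for the complexes that control mitotic transcription passed the test. Of 9 measured genes listed for the DREAM and MuvB complexes, 0 were called by limma, where 6.74% of all genes were called in either direction. The list also holds Rb1, which is not part of these complexes. The MuvB genes Lin9, Lin37 and Lin52 and the DREAM pocket protein gene Rbl2 were not among the measured genes, so much of the core was not seen. An unadjusted p under 0.05 in limma was found for 3 of the 9 and for 3266 of all 15733 genes. With only 9 genes, a count of 0 does not set these complexes apart from all genes. Mybl2, the activating partner of MuvB, differed by 0.48 ± 0.17 (limma adjusted p = 0.144). Rbl1, the repressive pocket protein p107, differed by 0.35 ± 0.13 (0.162). Of 7 inhibitors of cyclin-dependent kinases, which hold cells back from division, 2 rose, 0 fell and 5 were not called. That is 28.6% called higher, where 2.78% of all genes were called higher and 3.96% lower. Cdkn1a (p21) read 7.37, 7.18 and 7.05 in the controls and 9.42 and 9.38 in pools 10 and 12, a difference of 2.20 ± 0.12 (limma adjusted p = 1.17e-05). Cdkn2b (p15) rose by 0.84 ± 0.17 (0.0173). Without control pool 7, 1 of the 7 was called, beside 1.43% of all genes called higher.

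Markers of several cell types moved in the same arrays. Beside the counts below, 2.78% of all genes were called higher and 3.96% lower. Of 12 epithelial markers 3 were higher and 5 lower, with a summed linear signal of 8937 to 9200 in the Dicer cKO pools and 10575 to 13721 in the controls. Among the 5, Foxa2 was detected in 3 control pools and 0 Dicer cKO pools. It passed the detection filter only through the controls, so its direction carries no weight. Of 12 stromal markers 2 were lower, and their sum was 37873 in pool 10, 42959 in pool 12 and 45372 to 47162 in the controls. Of 4 adipocyte markers 2 were lower, with a sum of 732 in pool 10, 1584 in pool 12 and 2029 to 3747 in the controls. Of 6 immune markers 2 were higher, with 1603 in pool 10 and 1971 in pool 12 against 1122 to 1305. None of 9 smooth muscle markers (62556 to 64721 against 60191 to 62634) and none of 8 endothelial markers (9934 to 10547 against 9786 to 10640) was called by limma, with 0 and 2 at an unadjusted p under 0.05. Of all 15733 genes, 3266 had an unadjusted p under 0.05 in limma. Not detected were Epcam among epithelial, Ptprc, Itgam and Ms4a1 among immune, and Plin1, Fabp4 and Retn among adipocyte markers. The part of these markers in the differences of the mitosis genes was not tested.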

How the data were processed

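Per the labels, total RNA of pooled uteri was biotin-labelled and read on bead arrays, 1 array per pool. The labels name a human array, while the gene names in the files match mouse genes. For each probe the authors deposited a mean bead intensity on a linear scale, the SD and the count of its beads, and a detection score, a fraction from 0 to 1 that rises with signal; 1 minus this fraction served as detection p. BeadStudio (version not stated) is given in the submitters' processing notes. A further deposited table of the whole series was not used, since its row identifiers match no probe identifier of the array files.

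Intensities were background-corrected by normexp from the detection p, with an offset of 16, quantile-normalized and put on the log2 scale (neqc of limma 3.58.1, R 4.3.3). The offset compresses differences of dim probes. Probes with detection p under 0.05 on at least 2 of 5 arrays were kept. Names were updated through a RefSeq table of GRCm38.p6: 22864 of 45281 probes carried one, 11917 had a synonym of 1 gene and 10500 kept the array name. Each gene took its brightest probe, which left 15733 genes. Groups were compared with limma (lmFit, eBayes with an intensity trend, no covariate, 2-sided), with Benjamini-Hochberg adjustment over all genes and a threshold of 0.05. The fit was tested on simulated data. No slide or scan label was found, so no batch could be tested. An exact permutation test was not run, since 5 pools allow few splits. Motifs were searched as exact letters on both strands.

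The members, the lists and the tests were chosen with earlier results of these data known. Genes were named by rule: every member, with values by pool for the called members, for the member of each role with the largest moderated t and for 9 central genes, and up to 4 called genes of each other list, or 2 by moderated t where none was called. Other values by pool were chosen after they were seen.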

Additional observations from a re-analysis of the deposited data

How the results depend on the processing

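There were 13 alternatives, of which 5 left out 1 pool each. With a pool left out, the probes and the genes tested were kept. Members called numbered 5 of 26 in the main setting, where 2.78% of all genes were called higher. They numbered 3 without background correction (beside 2.78% of all genes) and 3 with detection on all 5 arrays (2.72%). With no detection filter 2 of 35 were called (0.969%). Without the intensity trend 1 of 26 was called (1.79%), and with the mean of all detected probes 2 (2.54%). With an offset of 50, median scaling or a robust spread there were 4 (2.8%), 4 (1.79%) and 5 (3.02%). With no filter, the other lists below hold 88 other mitosis genes and 45 G1 to S and replication genes. Leaving out 1 pool gave 0 to 18. The median difference was above 0 in every setting, and 0.20 to 0.67 with a pool left out. Other mitosis genes called higher numbered 3 with no detection filter and 1 to 20 with a pool left out. For G1 to S and replication genes the counts were 5 with no filter, 3 without the trend and 1 to 21 with a pool left out. For kinase inhibitors they were 1 with no filter and 1 to 2, and for DREAM and MuvB genes 0 to 1. The cause of these changes was not tested. Kif23 differed by 0.23 with probes averaged, and from -0.19 (without Dicer cKO pool 12) to 0.044 (without pool 10) with 1 pool left out; Cdca3 ranged from -0.026 (without pool 10) to 0.77 (without pool 12). Of 338 comparisons of single members with these settings, 286 kept direction and call, 33 lost a call, 16 gained one and 3 changed sign. No paired analysis was possible because the pool numbers are not shared between the groups. With 2 and 3 pools, the spread between pools limits what can be called.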
